A study of Sus scrofa with 4 samples.

Results

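RUNX2, SP7, DLX5, MSX2 and TWIST1 are transcription factors of the osteoblast lineage, and they are described here across the cells of regenerated pig bone. They were taken by gene symbol, and they are 5 of the 20648 genes in the count matrices. The samples were 4 droplet single-cell RNA libraries from regenerated bone of Bama mini-pigs aged 8 months, 2 from the group given the peptide named 1797 and 2 from the group given a control peptide. The tissue had been digested with collagenase and freed of red cells before 10x Genomics 3′ libraries were made. The labels name neither the sequence of either peptide nor the animals behind the libraries, so p-values measure the spread between these libraries, which may be technical. No further difference between the groups is given in the labels, and no library carries a batch label.

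RUNX2 binds DNA through its runt domain together with the partner CBFB, and in mice bone does not form without it. SP7, also called osterix, is a zinc-finger factor that acts downstream of RUNX2 in committed osteoblasts. DLX5 and MSX2 are homeobox factors induced by BMP signals: DLX5 activates RUNX2 and SP7, while MSX2 opposes DLX5 at shared sites and is also used by vascular wall cells. TWIST1, a basic helix-loop-helix factor of mesenchymal cells, binds the runt domain of RUNX2 and delays osteoblast maturation.

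On the Sscrofa11.1 build, RUNX2 lies on chromosome 7 from 40106581 to 40353304 and spans 246724 bases. SP7 lies on chromosome 5 from 18541368 to 18566668, and MSX2 on chromosome 16 from 49765587 to 49771745. DLX5 and TWIST1 are both on chromosome 9, from 76639915 to 76643689 and from 88286911 to 88290131. Levels are given in CPM, the UMIs of a gene per 1000000 UMIs of the same cells, and they are compared between cells and between libraries for 1 gene at a time, never between genes.

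After filtering, 12218 and 12688 cells remained in the 1797 libraries, against 12765 and 11466 with the control peptide, with median depths of 3863 and 3145.5 UMIs per cell against 5345 and 4606. Library 1 of the 1797 group stood apart in having 1159 barcodes with under 200 genes, against 55 to 309 in the other libraries. Pairs of libraries shared 34 to 45 cell barcodes. Clusters were named from marker lists that held none of the 5 genes, and 26 of 33 clusters could be named. Named blood and immune classes filled 66.7% and 83.2% of the 1797 libraries and 78.3% and 78.9% of the control libraries. Stromal clusters were clustered again and gave osteoblasts, with all 13 osteoblast markers detected and summed marker levels of 178720 and 194176 CPM in the 1797 libraries and 238756 and 165073 CPM in the control libraries, fibroblast-like cells, chondrocytes, pericytes or smooth muscle cells, and mixed stromal cells in which osteoblast and fibroblast markers scored alike. Osteoblasts, fibroblast-like and mixed stromal cells together are called pooled stromal cells. They numbered 279 and 37 cells in the 1797 libraries, against 116 and 198 with the control peptide. Osteoblasts alone were few, with 40 and 10 cells in the 1797 libraries, against 63 and 15 with the control peptide. Chondrocytes were 37 and 13 cells against 2 and 5, and fibroblast-like cells 20 and 3 against 4 and 2, so that their levels rest on few cells outside 1797 library 1.

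RUNX2 was detected in every named cell class and was highest in bone stroma. In pooled stromal cells it stood at 2881 and 2529 CPM in the 1797 libraries and at 2953 and 2594 CPM in the control libraries. These values lay above every blood and endothelial class in each of the 4 libraries, at 1.92 to 2.51 times the highest of them. That highest class was the mast cells or basophils in 1797 library 1, at 1502 CPM, and the plasmacytoid dendritic cells in the other libraries, at 1008 to 1377 CPM.

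By class, the mean RUNX2 level over the 4 libraries was 3010 ± 374 CPM in mixed stromal cells, 2176 ± 769 in osteoblasts, 1269 ± 1138 in chondrocytes, 1246 ± 180 in plasmacytoid dendritic cells and 909 ± 450 in mast cells or basophils (SD, n = 4 here and in all class means below). A middle range followed, with 867 ± 292 CPM in fibroblast-like cells, 714 ± 262 in eosinophils, 666 ± 248 in monocytes, 632 ± 149 in T cells, 619 ± 27.3 in dendritic cells, 595 ± 80.6 in NK or cytotoxic T cells, 530 ± 132 in plasma cells, 488 ± 41.9 in pericytes or smooth muscle cells and 476 ± 129 in the mixed class of T or NK cells. The lowest classes were macrophages or osteoclasts (296 ± 23.0 CPM), neutrophils (228 ± 121), B cells (203 ± 70.5), erythroid cells (116 ± 67.0), macrophages (67.1 ± 34.6) and endothelial cells (53.7 ± 28.2). The ranges of the libraries overlapped between every pair of neighbours in this order, so the order of neighbours does not go beyond the spread. Mixed stromal cells nevertheless lay above osteoblasts in 4 of 4 libraries. The same held for fibroblast-like cells above eosinophils, T or NK cells above macrophages or osteoclasts, and macrophages above endothelial cells.

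The share of cells with a RUNX2 UMI followed the same contrast. It was 96.3% and 100% of mixed stromal cells in the 1797 libraries, against 91.8% and 98.9% with the control peptide, at median depths of 13742 to 45822 UMIs. In endothelial cells, at 2741 to 14700.5 UMIs, it was 25.1% and 10.3% against 21.3% and 47.5%. With each cell thinned to 1000 UMIs, the shares were 82.0% and 79.0% against 81.6% and 77.2% in mixed stromal cells, and 6.87% and 1.14% against 3.91% and 5.85% in endothelial cells. The thinned share in monocytes was 26.7% and 25.2% in the 1797 libraries, against 51.3% and 35.7% with the control peptide, between the stromal and the endothelial values. A large unnamed cluster of 5346 cells, led by BLK and SOX13 and with 5 of 10 T cell markers raised, held 791 and 649 CPM of RUNX2 in the 1797 libraries and 1005 and 1021 CPM in the control libraries.

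**Figure D1:**
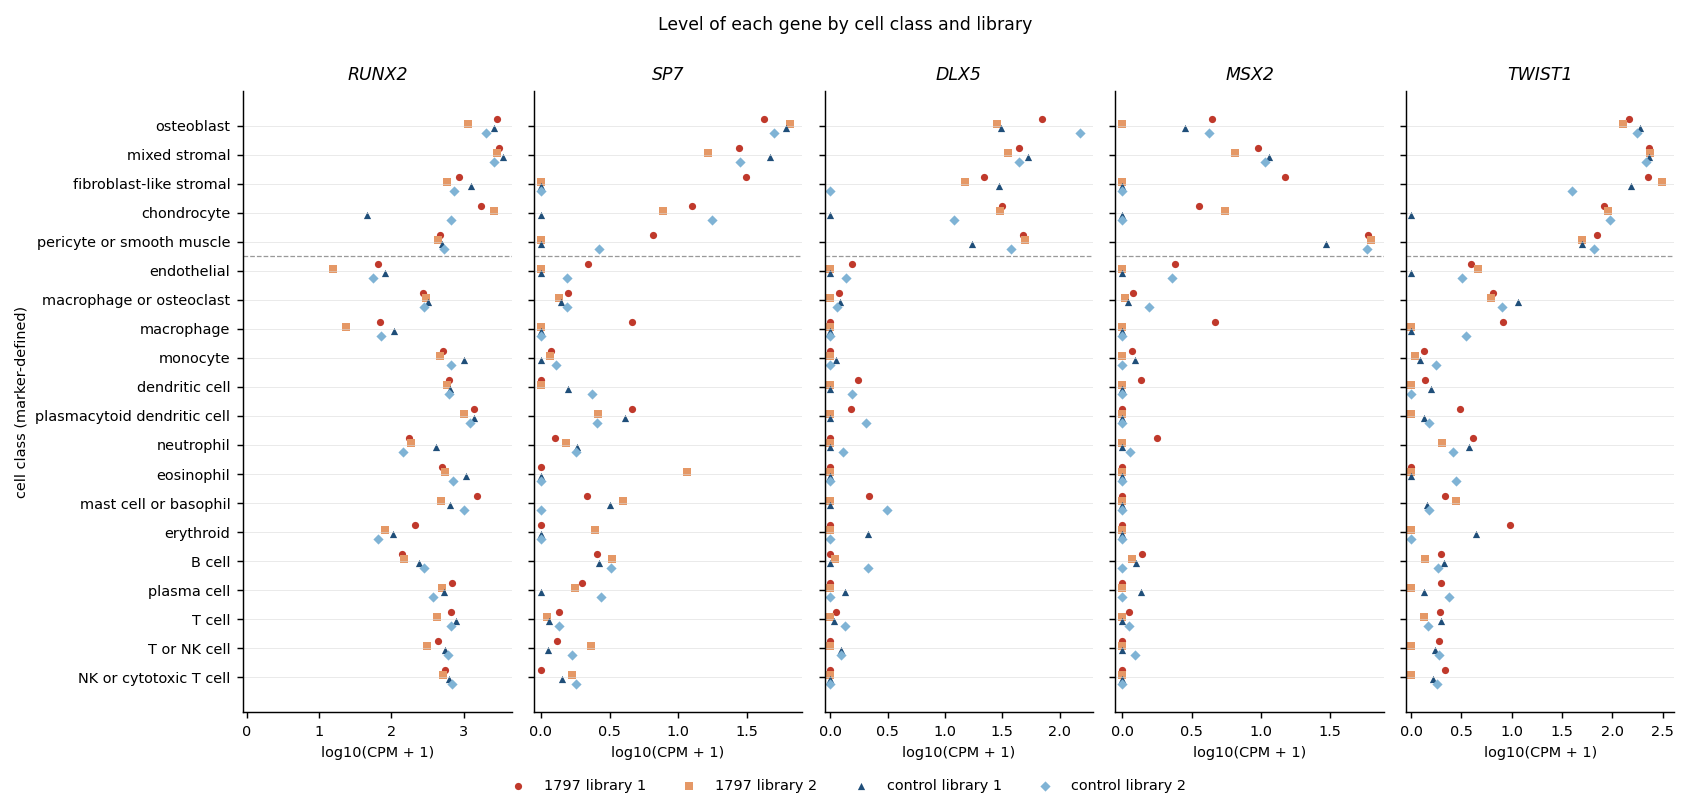
Level of each of the 5 genes (horizontal axis, log10 of CPM + 1) in 20 marker-defined cell classes (rows), with 1 point per library; the dashed line parts the stromal and pericyte classes above from the endothelial and blood classes below. RUNX2 spreads over all classes, while SP7, DLX5, MSX2 and TWIST1 stay at or under 10.6 CPM below the line, where macrophages or osteoclasts hold 5.22 to 10.6 CPM of TWIST1.

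SP7, the marker of commitment to the osteoblast fate, was highest in osteoblasts. Its level there was 40.9 and 63.4 CPM in the 1797 libraries and 59.9 and 48.2 CPM in the control libraries, from 24 and 7 UMIs against 66 and 15. Mixed stromal cells held 26.7 and 15.5 CPM in the 1797 libraries and 44.9 and 26.9 CPM in the control libraries. Osteoblasts thus lay above mixed stromal cells in 4 of 4 libraries, at 53.1 ± 10.4 against 28.5 ± 12.2 CPM, while the ranges of the libraries overlapped. Chondrocytes followed at 8.73 ± 7.08 CPM, from 15 UMIs in all, and no other class outside the pooled stroma averaged above 2.62 CPM, the mean of eosinophils, whose 3 SP7 UMIs all came from 1797 library 2.

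Among blood cells, B cells held a small but even SP7 level of 1.56 and 2.27 CPM in the 1797 libraries and 1.66 and 2.25 CPM in the control libraries, from 76 UMIs in 4107 cells. Plasmacytoid dendritic cells were at 3.59 and 1.61 CPM against 3.10 and 1.57. Monocytes held 0.180 and 0.168 CPM in the 1797 libraries and 0 and 0.283 CPM in the control libraries, where the 0 allows up to 0.352 CPM, so that the libraries of B cells and monocytes did not overlap. A UMI was found in 1.18% and 2.01% of B cells against 1.19% and 2.10%, at median depths of 8000 to 9808 UMIs, and in 0.200% and 0.272% of monocytes against 0% (which allows up to 0.616%) and 0.554%, at 10116 to 19293 UMIs. Summed osteoblast markers, which both classes should lack, were 246 and 109 CPM in B cells of the 1797 libraries and 298 and 424 CPM in those of the control libraries, beside 207 and 54.1 CPM against 218 and 361 CPM in monocytes. Summed erythroid markers varied more between libraries, at 2057 and 79.4 CPM against 1009 and 115 CPM in B cells. In monocytes they were 2113 and 70.2 CPM against 568 and 274 CPM. The part of free RNA in these low SP7 levels was not tested.

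DLX5 was shared by bone stroma and vessel walls. In mixed stromal cells it was 43.5 and 34.4 CPM in the 1797 libraries and 52.2 and 43.3 CPM in the control libraries. Pericytes or smooth muscle cells, which wrap blood vessels, held 46.6 and 49.1 CPM against 16.3 and 36.8 CPM. Osteoblasts varied most, at 69.8 and 27.2 CPM in the 1797 libraries and 29.96 and 151 CPM in the control libraries. The class means of 69.5 ± 57.8 CPM in osteoblasts, 43.4 ± 7.30 in mixed stromal cells and 37.2 ± 14.9 in pericytes or smooth muscle cells did not differ beyond the spread of the libraries. Chondrocytes held 17.8 ± 14.8 CPM and fibroblast-like cells 15.9 ± 12.2. Every blood class and the endothelial cells averaged under 1 CPM, and NK or cytotoxic T cells, macrophages and eosinophils held 0 UMIs of DLX5. A count of 0 allows up to 0.271, 2.71 and 1.89 CPM in these classes over the 4 libraries, counting error only.

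MSX2 marked pericytes or smooth muscle cells rather than osteoblasts. It stood at 58.1 and 61.4 CPM in those cells of the 1797 libraries and at 28.6 and 57.1 CPM in those of the control libraries. Mixed stromal cells held 8.53 and 5.54 CPM against 10.4 and 9.70 CPM. The libraries of the pair of classes did not overlap, and their means were 51.3 ± 15.3 and 8.55 ± 2.16 CPM. Osteoblasts were lower again, at 3.41 and 0 CPM in the 1797 libraries and 1.82 and 3.22 CPM in the control libraries, which came from only 5 UMIs in all. The 0 in 1797 library 2, from 10 cells, allows up to 27.2 CPM. Thinned to 1000 UMIs, 4.95% and 6.90% of pericytes or smooth muscle cells held an MSX2 UMI in the 1797 libraries, against 2.38% and 5.78% with the control peptide, against 0.758% and 0.681%, and 0.474% and 0.996%, of mixed stromal cells. Endothelial cells, the inner lining of the same vessels, held 0.676 ± 0.783 CPM. Plasmacytoid dendritic cells, mast cells or basophils, eosinophils, erythroid cells and NK or cytotoxic T cells had 0 UMIs of it, which allows up to 0.271 to 1.89 CPM depending on the class.

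TWIST1 was highest in bone stroma and even across the libraries of mixed stromal cells. Mixed stromal cells held 231 and 235 CPM in the 1797 libraries and 230 and 215 CPM in the control libraries, a mean of 228 ± 8.70 CPM. Osteoblasts held 147 and 127 CPM against 187 and 174 CPM and by CPM lay below mixed stromal cells in every library without overlap. With each cell thinned to 1000 UMIs, the share of cells with a TWIST1 UMI did not follow this order. It was 15.6% and 22.7% of osteoblasts in the 1797 libraries, against 27.0% and 19.5% with the control peptide. In mixed stromal cells it was 18.1% and 19.1% against 17.4% and 19.2%, so that osteoblasts were lower only in 1797 library 1. Fibroblast-like cells, at 182 ± 115 CPM, overlapped with both osteoblasts and mixed stromal cells. Chondrocytes and pericytes or smooth muscle cells stood lower, at 66.6 ± 44.7 and 58.02 ± 10.5 CPM, and neither pericytes nor osteoblasts overlapped with their lower neighbour. Of the blood classes, macrophages or osteoclasts held 5.49 and 5.22 CPM against 10.6 and 7.02 CPM, and all the others averaged 3.00 CPM or less.

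The cells that held the UMIs of each gene differed accordingly. Blood and immune cells of the named classes held 43.7% and 70.0% of RUNX2 UMIs in the 1797 libraries, against 70.4% and 48.4% with the control peptide, and pooled stromal cells held 30.5% and 7.28% against 10.3% and 34.7%. Unnamed clusters outside the stroma, among them the one led by BLK and SOX13, held 13.6% and 17.9% of RUNX2 UMIs against 17.7% and 12.3%. For SP7 the share of pooled stromal cells was 59.6% and 21.4% against 62.6% and 73.4%, and in 1797 library 2, with 98 SP7 UMIs, blood and immune cells held 61.2%. For TWIST1 it was 64.5% and 49.2% against 65.7% and 82.7%. Pericytes or smooth muscle cells held 70.6% and 57.7% of MSX2 UMIs in the 1797 libraries, against 25.9% and 48.8% with the control peptide, from totals of 343 and 26 UMIs against 27 and 213. They also held 37.7% and 17.4% of DLX5 UMIs against 3.54% and 12.2%. These were small populations, since pooled stromal cells made up only 2.28% and 0.292% of cells in the 1797 libraries, against 0.909% and 1.73% with the control peptide.

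**Figure D2:**
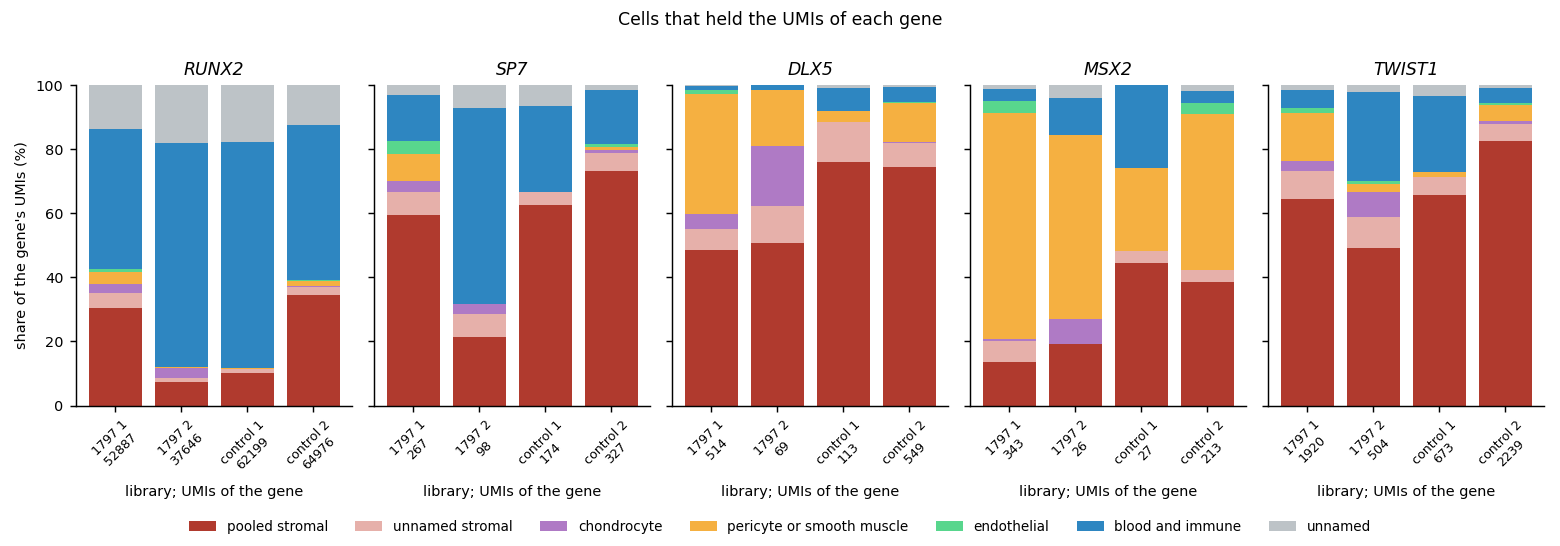
Share of the UMIs of each gene (vertical axis, percent) held by each group of cells in the 4 libraries; the numbers under the bars are the UMIs of the gene in that library. Blood and immune cells of named classes hold 43.7% to 70.4% of RUNX2 UMIs, and pericytes or smooth muscle cells up to 70.6% of MSX2 UMIs.

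Within the stroma the 5 genes were distributed differently over sub-clusters. Sub-cluster 16, with 48 cells, was led by the bone genes IFITM5, SMPD3 and BGLAP and had all 13 osteoblast markers raised. With the 4 libraries summed, it held 55.7 CPM of SP7 (95% counting interval 45.3 to 67.9) and 60.9 CPM of DLX5 (49.9 to 73.5). Its level of MSX2 was 2.28 CPM (0.620 to 5.83) and that of TWIST1 128 CPM (112 to 146). Its level of RUNX2 was 2610 CPM. Sub-cluster 11, the other osteoblast sub-cluster with 80 cells, had 12 of 13 markers raised but was led by genes outside the lists such as FAM83D and CHAC1. FAM83D, LOC100621915 and LOC100525821 were leading genes both there and in unnamed cluster 22, outside the stroma, with 639 cells at a median of 1249 UMIs. Sub-cluster 11 held 384 CPM of TWIST1 (322 to 454), which was higher than in sub-cluster 16 in each of the 4 libraries. Its level of SP7 was 39.8 CPM (21.8 to 66.8). Per library the cells were few, with 14 and 2 against 26 and 6 in sub-cluster 16 and 26 and 8 against 37 and 9 in sub-cluster 11. Their median depths were 34856 and 3725.5 UMIs.

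The mixed stromal cells came mostly from a pair of sub-clusters. Sub-cluster 3, with 223 cells, was led by genes that included CXCL12, a chemokine of marrow stroma, and LAMA2. Sub-cluster 4, with 199 cells, was led by genes that included SFRP4, SFRP2, POSTN and ASPN, which encode secreted WNT modulators and matrix proteins. RUNX2 in sub-cluster 3 was 3812 and 3549 CPM in the 1797 libraries and 3715 and 4442 CPM in the control libraries. In sub-cluster 4 it was 2356 and 1715 CPM against 2903 and 2196 CPM, so that the libraries of the pair did not overlap. TWIST1 was 274 and 247 CPM against 259 and 241 CPM in sub-cluster 3 and 185 and 215 CPM against 146 and 209 CPM in sub-cluster 4, again without overlap. SP7 overlapped, at 14.3 to 32.2 CPM in sub-cluster 3 and 17.5 to 83.7 CPM in sub-cluster 4. Some of these library values rest on few cells. Sub-cluster 4 had 55 and 6 cells in the 1797 libraries against 9 and 129 with the control peptide, and sub-cluster 3 had 120 and 18 against 36 and 49. Median depths also differed, at 21906 UMIs in sub-cluster 3 and 47347 in sub-cluster 4. Sub-cluster 10, also mixed stromal, had 51 cells, 44 of them from 1797 library 1, at a median depth of 1819 UMIs. It held 1039 CPM of RUNX2 (859 to 1245) and 186 CPM of TWIST1 (115 to 285). SP7 and MSX2 had 0 UMIs in it, which allows up to 26.6 CPM. The fibroblast-like sub-cluster 14, with 29 cells and the immune genes LCN2 and ITGAM among its leading genes, held 898 CPM of RUNX2 (825 to 975) and 215 CPM of TWIST1.

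Pericytes or smooth muscle cells were in 4 sub-clusters, of which the largest, sub-cluster 0, was led by the inflammatory genes CXCL2, CCL2 and IL6. MSX2 was 68.04 CPM in it (95% counting interval 59.1 to 77.9), 92.4 CPM in sub-cluster 5 (66.0 to 126), which expressed the smooth muscle gene MYH11 among its leading genes, 44.5 CPM in sub-cluster 13 (36.5 to 53.8) and 21.2 CPM in sub-cluster 6 (10.9 to 37.0). RUNX2 kept to a narrow range over the same sub-clusters, from 388 to 526 CPM. Most cells of sub-clusters 0, 5 and 6 came from 1797 library 1, with 165 of 182, 20 of 29 and 84 of 98, and most of sub-cluster 13, 73 of 115, from control library 2, so sub-cluster and library cannot be told apart.

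**Figure D3:**
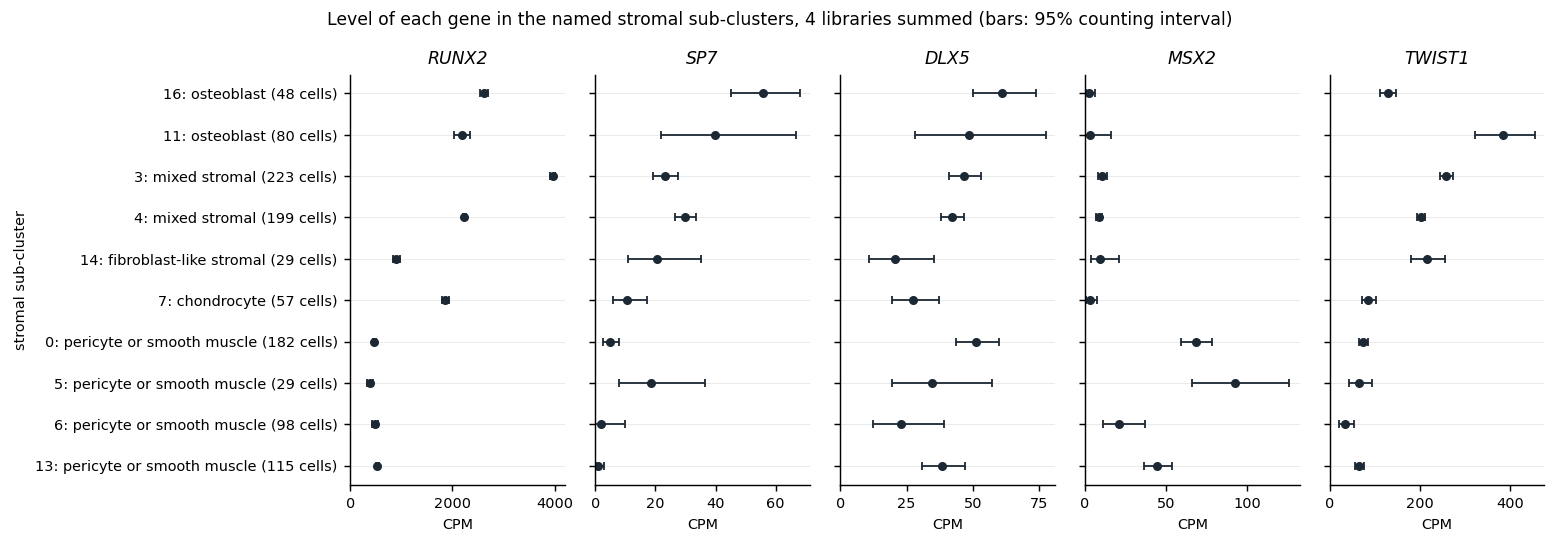
Level of each gene (horizontal axis, CPM) in 10 named stromal sub-clusters (rows, with their cell numbers), without mixed stromal sub-cluster 10. The 4 libraries are summed, bars give the 95% counting interval, and the horizontal scale differs between genes. SP7 is highest in osteoblast sub-cluster 16, RUNX2 in mixed stromal sub-cluster 3, TWIST1 in osteoblast sub-cluster 11 and MSX2 in pericyte sub-clusters 5 and 0.

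Depth separated the stromal cells too. Before the stroma was clustered again, the largest stromal cluster of 724 cells had a median of 22474 UMIs per cell, and an unnamed stromal cluster of 621 cells, with 8 of 13 osteoblast markers raised, had a median of 848. RUNX2 was 2726 CPM in the deep cluster and 241 CPM in the shallow one, while SP7 was 29.1 and 18.0 CPM, DLX5 43.4 and 20.6 CPM, MSX2 8.14 and 3.86 CPM and TWIST1 209 and 83.6 CPM. Thinned to 1000 UMIs, RUNX2 was found in 77.4% of 680 deep cells and 21.4% of 245 shallow ones. RUNX2 is by far the longest of the 5 genes. Whether intronic reads were counted is not given in the sources used here, and its part in this difference was not tested.

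The genes were also found together in single cells. Among cells with at least 10000 UMIs, 3 or more of the 5 genes were detected in 75.9% of 415 pooled stromal cells, 50.3% of 300 pericytes or smooth muscle cells and 38.5% of 39 chondrocytes. The share was 1.24% of 564 endothelial cells, and none of the 354 plasmacytoid dendritic cells, 1675 monocytes or 1566 B cells reached 3, which allows shares of up to 0.847%, 0.179% and 0.192%. The cut is a minimum, so the classes were not matched for depth. Median depths were 37614 UMIs in pooled stromal cells, 17531.5 in pericytes or smooth muscle cells, 28603 in chondrocytes and 20149 in endothelial cells. They were 22973 in plasmacytoid dendritic cells, 19003 in monocytes and 13364 in B cells. The part of depth in these shares was not tested. Pooled stromal cells above the cut had RUNX2 in 100% of cells, TWIST1 in 91.3%, DLX5 in 60.2%, SP7 in 52.0% and MSX2 in 24.8%. DLX5 was found in 72.2% of those with SP7 and in 47.2% of those without it, at median depths of 43905 and 29195 UMIs. In pericytes or smooth muscle cells DLX5 was found in 40.6% of cells with MSX2 and 38.5% of those without, at 19260 and 14996 UMIs.

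Across the 70 sums of cells per library and class with at least 20 cells, the log2(CPM + 1) profiles of the members were alike to differing degrees. DLX5 and TWIST1 had the closest pair, with a Pearson r of 0.91, followed by DLX5 and MSX2 at 0.85. MSX2 and TWIST1 had 0.82, SP7 and DLX5 0.81, SP7 and TWIST1 0.80, and SP7 and MSX2 0.64. RUNX2 stood apart, at 0.54 with SP7, 0.53 with DLX5, 0.41 with TWIST1 and 0.28 with MSX2. These sums share libraries and depth, and the values describe these profiles only.

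Of 12328 further genes with at least 500 UMIs, those most like RUNX2 were UST and PXYLP1 (both r = 0.70), RUNX1 (0.69), MTERF1 and PAPSS2 (both 0.66). UST is a sulfotransferase of glycosaminoglycans, PAPSS2 makes the sulfate donor and RUNX1 is the blood-cell relative of RUNX2. Those most like SP7 were CPZ (0.87), VASN (0.86), ZFHX4 (0.86), GLI2, the hedgehog effector (0.85), and FOXD1 (0.85). Those most like DLX5 included TMEM100 (0.96), SIX4 and HOXA10 (both 0.95) and PCDH18 (0.94). MSX2 was matched by MEIS3 (0.93), the collagen gene COL5A3 (0.92), RASL12 (0.92), VGLL3 (0.91) and the cation channel TRPC6 (0.91). TWIST1 was matched by DZIP1L and PCP4L1 (both 0.94), the collagen hydroxylase family member P3H3, LRRC17 and CLEC11A, a bone growth factor (0.93 each).

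The first comparison between the peptides used the sum of all cells of a library. RUNX2 stood at 637 and 402 CPM in the 1797 libraries and at 701 and 694 CPM in the control libraries. Both 1797 libraries lay below both control libraries, as did those of 12.2% of all genes tested. Its log2 fold change was -0.46 ± 0.24 (SE), with an edgeR adjusted p of 0.9998, and without 1797 library 2, the lowest, it was -0.22. SP7 was 3.21 and 1.05 CPM against 1.96 and 3.49 CPM, with a log2 fold change of -0.40 ± 0.62.

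The other 3 genes varied more within the groups than between them. DLX5 was 6.19 and 0.736 CPM in the 1797 libraries and 1.27 and 5.87 CPM in the control libraries (log2 fold change -0.10 ± 1.18). MSX2 was 4.13 and 0.277 CPM against 0.304 and 2.28 CPM (0.71 ± 1.47), and TWIST1 23.1 and 5.38 CPM against 7.59 and 23.9 CPM (-0.19 ± 0.86). Library 1 of the 1797 group and library 2 of the control group were high for all 3 genes and for SP7. In a sum of all cells, fewer cells of a type and less RNA per cell cannot be told apart. The same libraries held more pooled stromal cells, and more pericytes or smooth muscle cells, with 2.45% and 0.126% of cells in the 1797 libraries, against 0.125% and 0.811% with the control peptide. The signs of SP7, DLX5, MSX2 and TWIST1 each turned on leaving out 1 library. By edgeR's quasi-likelihood test with Benjamini-Hochberg adjustment, 0 of the 5 members were called, beside 0% of the 16654 genes tested. An unadjusted p under 0.05 was found for 264 genes (1.59%), and DESeq2 called 21.

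In pooled stromal cells the groups lay close together for RUNX2 and TWIST1. RUNX2 averaged 2705 ± 249 CPM in the 1797 libraries and 2773 ± 254 CPM in the control libraries (SD, n = 2 each), a log2 fold change of -0.04 ± 0.27. TWIST1 was 222 and 229 CPM against 204 and 213 CPM. Both 1797 libraries lay above both control libraries, as did those of 14% of the genes tested, by a log2 fold change of only 0.11 ± 0.24. DLX5 was 44.5 and 32.3 CPM against 39.8 and 47.1 CPM (-0.16 ± 0.29), and MSX2 8.41 and 4.61 CPM against 5.55 and 9.44 CPM (-0.15 ± 0.49), both with overlap.

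SP7 had the largest difference in pooled stromal cells, at 28.4 and 19.4 CPM in the 1797 libraries and 50.4 and 27.6 CPM in the control libraries. The libraries of the groups overlapped, and its log2 fold change was -0.66 ± 0.40 with an edgeR adjusted p of 0.9998. Control library 1 was the high one, and without it the value was -0.14, against -1.06 without control library 2. Osteoblasts made up 63 of its 116 pooled stromal cells, and its summed osteoblast markers were 139051 CPM, against 59971 CPM in the other control library and 58350 and 53541 CPM in the 1797 libraries. Most of each sum came from the collagen genes COL1A1 and COL1A2, which stood at 68041 and 52697 CPM in control library 1. The part of the osteoblast share in the SP7 value was not tested. Mixed stromal cells alone gave -0.56 ± 0.39 for SP7 and 0.05 ± 0.28 for RUNX2. Sub-cluster 3 gave 120 and 18 of the 219 and 24 mixed stromal cells of the 1797 libraries and 36 of the 49 in control library 1, while sub-cluster 4 gave 129 of the 181 in control library 2, which thus stood apart from the other 3 libraries. Of the 5 members 0 were called, beside 0% of 12378 genes tested. An unadjusted p under 0.05 was found for 303 genes (2.45%), and DESeq2 called 3. Without control library 1 edgeR called 56 genes and without control library 2 it called 51, with 0 members of the 5 among those of either fit.

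**Figure D4:**
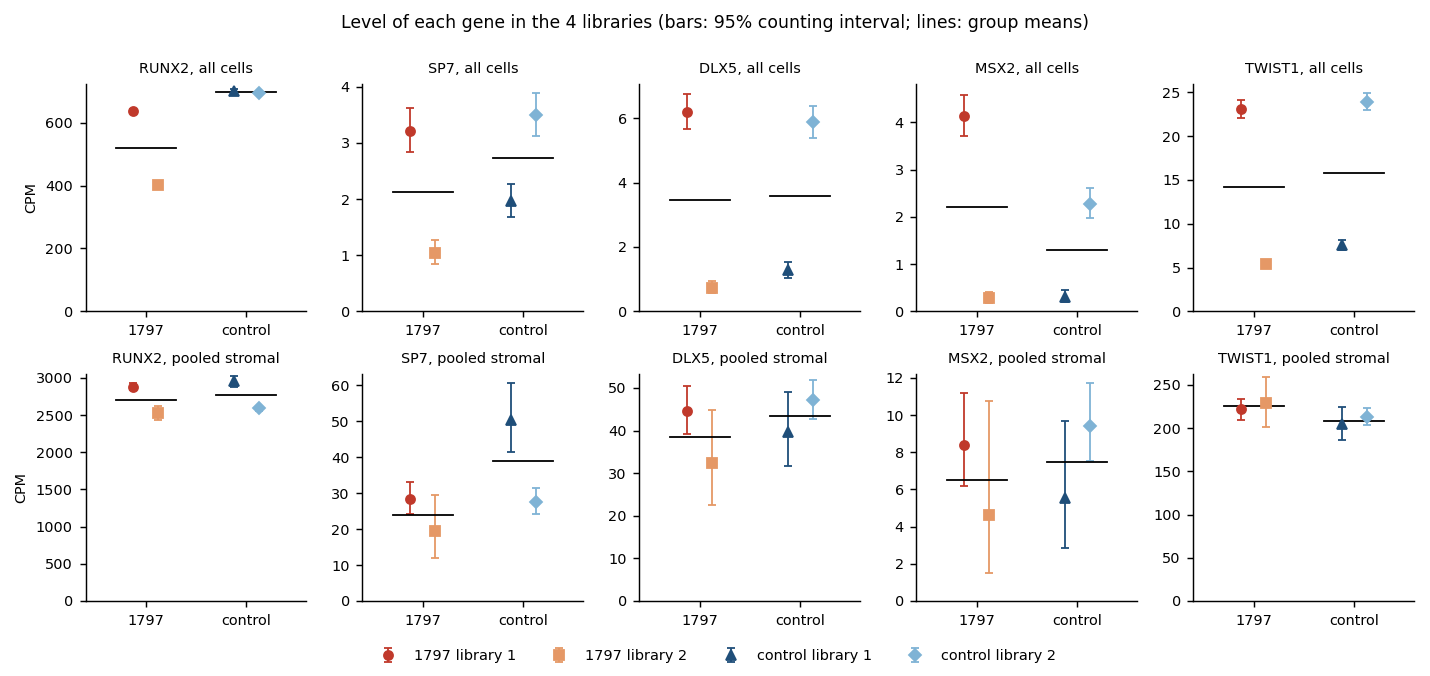
Level of each gene (vertical axis, CPM from 0) in the 1797 and control libraries, over all cells (upper row) and over pooled stromal cells (lower row), with 95% counting intervals per library and lines for the group means. Over all cells the libraries of 1 group differ up to the 4.13 and 0.277 CPM of MSX2, while in pooled stromal cells RUNX2 lies between 2529 and 2953 CPM in all 4 libraries.

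Blood cells held the largest share of RUNX2 UMIs, and RUNX2 could be compared in 15 blood and endothelial classes, each holding 20 cells or more per library. B cells had the most distinct values, at 139 and 148 CPM in the 1797 libraries and 242 and 283 CPM in the control libraries. The groups did not overlap, as in the same direction for 25.1% of genes tested in B cells. The log2 fold change was -0.81 ± 0.14, with an unadjusted p of 0.000959 that ranked 24 among 12489 genes and an edgeR adjusted p of 0.499. DESeq2 gave -0.79 ± 0.19 with an adjusted p of 0.00527 and thus called it, and edgeR did not under any alternative, with adjusted p from 0.137 to 0.999. Thinned to 1000 UMIs, 10.0% and 10.1% of B cells held a RUNX2 UMI in the 1797 libraries, against 16.9% and 19.6% with the control peptide. Summed osteoblast markers in B cells were also highest in the control libraries, as given above, and summed T cell markers were 75.0 and 77.4 CPM against 128 and 101 CPM. In all, 7 of 21 marker lists of other cell types were lower in both 1797 libraries than in both control libraries, and 2 were higher. Their part in the RUNX2 difference was not tested.

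Monocytes held 522 and 462 CPM of RUNX2 in the 1797 libraries and 1016 and 663 CPM in the control libraries, a log2 fold change of -0.71 ± 0.26 with an edgeR adjusted p of 0.741. The groups did not overlap, as for 24.6% of genes there, and the value was -0.31 without control library 1. In monocytes 7 of 21 marker lists of other types were lower in both 1797 libraries and 2 higher; summed T cell markers were 46.7 and 27.5 CPM against 67.0 and 53.5 CPM, and B cell markers 95.5 and 118 CPM against 153 and 138 CPM. The mixed class of T or NK cells held 437 and 312 CPM against 555 and 601 CPM, with -0.60 ± 0.19 and an edgeR adjusted p of 0.9998. These groups did not overlap either, as for 17.5% of genes, and the value was -0.36 without 1797 library 2. In these cells 6 of 20 lists of other types were lower in both 1797 libraries and 1 higher, with osteoblast markers at 336 and 131 CPM against 392.1 and 479 CPM and B cell markers at 17.9 and 25.4 CPM against 38.1 and 29.3 CPM. The part of these markers in the RUNX2 values of both classes was not tested. Macrophages (-0.79 ± 0.53), eosinophils (-0.69 ± 0.36) and NK or cytotoxic T cells (-0.31 ± 0.15) also had both 1797 libraries below both control libraries, as had 17.3%, 13.7% and 16.7% of the genes tested in them. An unadjusted p under 0.05 was found for RUNX2 in B cells, monocytes and T or NK cells, beside 7.14%, 6.58% and 2.69% of genes.

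In the other direction stood plasma cells, at 696 and 505 CPM against 540 and 376 CPM (0.34 ± 0.27), mast cells or basophils (0.26 ± 0.54) and erythroid cells (0.92 ± 0.72), all with overlap. Dendritic cells (-0.06 ± 0.16), plasmacytoid dendritic cells (-0.12 ± 0.22) and macrophages or osteoclasts (0.01 ± 0.16) were near 0. T cells were at 677 and 420 CPM against 769 and 661 CPM (-0.38 ± 0.22), endothelial cells at -0.58 ± 0.55 and neutrophils at -0.52 ± 0.59. The make-up of neutrophils and erythroid cells differed between libraries of the same group. Of the 2 largest neutrophil clusters, cluster 2 held 1430 and 1909 cells in the 1797 libraries against 797 and 884 with the control peptide, and cluster 3 held 597 and 2039 against 798 and 1155. Among the smaller neutrophil clusters, cluster 9 held 88 and 507 against 378 and 861. Cluster 7 held 71 and 473 against 33 and 650, and cluster 31 held 20 and 277 against 17 and 480. Of the erythroid cells, cluster 17 held 340 and 19 against 123 and 23, and cluster 32 held 14 and 178 against 194 and 20.

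Over the 15 classes the RUNX2 fold change was below 0 in 11, with a median of -0.38 on the log2 scale. In 6 classes both 1797 libraries lay below both control libraries, and in 0 classes above. Of the 2230 genes tested in all these classes, 15.1% were below 0 in as many or more classes and 11.6% had as many or more classes without overlap in that direction, so RUNX2 is among a sizeable minority here. Classes share their libraries and are not replicates. By edgeR the adjusted p of RUNX2 missed the threshold in all 15 classes, beside 0% of genes called in 13 of them, 0.0216% in NK or cytotoxic T cells and 0.0112% in plasmacytoid dendritic cells. Whether the RUNX2 change differed between blood and stromal cells was not tested. Genes of at least 100000 bases had a median log2 fold change of -0.01 in B cells, 0.02 in monocytes and -0.02 in T or NK cells. Of other genes, 3 were called by edgeR in these classes. SLA-1, a classical MHC class I gene of the pig, was 1361 and 1614 CPM in NK or cytotoxic T cells of the 1797 libraries and 534 and 528 CPM in those of the control libraries (log2 fold change 1.48 ± 0.15), and LOC100152327 was 13.8 and 18.1 CPM there against 166 and 133 CPM (-3.25 ± 0.25). OSBPL3, of the oxysterol-binding family, was 23.6 and 28.5 CPM against 235 and 205 CPM in plasmacytoid dendritic cells (-3.09 ± 0.25). LOC100152327 was also among the leading genes of the plasma cell cluster, next to JCHAIN. That cluster held 46 and 42 cells in the 1797 libraries against 97 and 92 with the control peptide. The part of plasma cell RNA in the LOC100152327 difference was not tested.

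**Figure D5:**
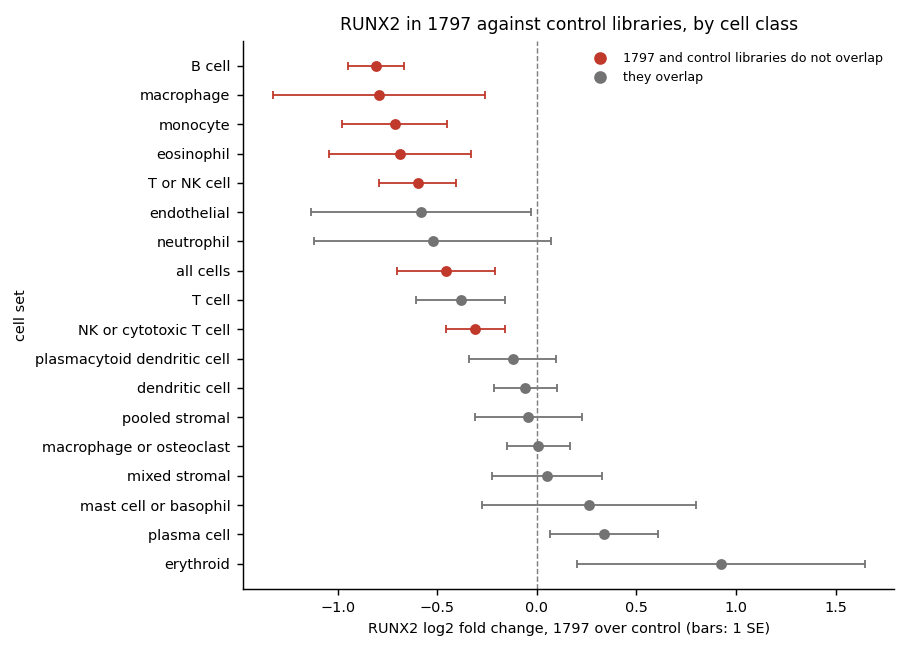
RUNX2 log2 fold change, 1797 over control (horizontal axis, bars 1 SE), in 16 cell classes, in all cells and in pooled stromal cells (rows); red points are classes whose 1797 and control libraries do not overlap. B cells lie at -0.81, pooled stromal cells at -0.04 and erythroid cells at 0.92.

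TWIST1 passed the filter on low counts in 3 of the blood classes, and SP7 in B cells alone. TWIST1 was 5.49 and 5.22 CPM in macrophages or osteoclasts of the 1797 libraries and 10.6 and 7.02 CPM in those of the control libraries, a log2 fold change of -0.67 ± 0.31 with an edgeR adjusted p of 0.612. The groups did not overlap, as for 24.9% of genes in that class. It gave -0.53 ± 0.69 in B cells and 0.06 ± 0.81 in neutrophils. SP7 in B cells gave 0.04 ± 0.44. DLX5 and MSX2 were too low for a test in every blood class.

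The lists of genes around these factors showed 0 called members in either direction, by edgeR, in all cells or in pooled stromal cells. In pooled stromal cells 19 related transcription factors were tested, 9 of them above 0 and 10 below, with a median log2 fold change of -0.06 beside -0.02 over all genes. Among the most abundant were RUNX1, at 1630 and 1718 CPM in the 1797 libraries against 1920 and 1549 CPM in the control libraries, and TCF12, which pairs with TWIST1, at 608 and 707 CPM against 527 and 688 CPM. Inhibitors and corepressors of RUNX2 had a median of 0.16, with 11 of 14 above 0. Among them the ubiquitin ligase SMURF2 stood at 772 and 658 CPM against 537 and 728 CPM, WWTR1, which the list holds although it is known as a coactivator of RUNX2, at 378 and 439 CPM against 446 and 287 CPM, and ZNF521 at 324 and 276 CPM against 173 and 385 CPM.

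Bone matrix and mineral targets had the lowest median, -0.31, with 13 of 21 tested genes below 0. COL1A1, the main collagen of bone, was 25505 and 25491 CPM in the 1797 libraries and 68041 and 25915 CPM in the control libraries, and COL1A2 22219 and 19852 CPM against 52697 and 24450 CPM. The bone glycoprotein gene SPARC was 4715 and 3935 CPM against 7478 and 4551 CPM. Control library 1, the library with the largest share of osteoblasts, was the high one for each, and the other control library lay near the 1797 libraries. COL1A1, COL1A2 and SPARC are also osteoblast markers by which clusters were named, so their levels are not independent of that share. The list of targets holds further such markers, among them BGLAP, IBSP and ALPL. Signalling inputs had a median of 0.14 with 14 of 23 above 0. BMPR2, a BMP receptor, was 374 and 373 CPM against 782 and 338 CPM, the WNT effector CTNNB1 320 and 434 CPM against 359 and 314 CPM, and the FGF receptor FGFR1 398 and 281 CPM against 273 and 311 CPM. In the sum of all cells the medians were -0.02 for related factors, 0.13 for inhibitors, -0.29 for bone targets and 0.18 for inputs, beside -0.02 over all genes.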

How the data were processed

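The deposited values were raw UMI counts per gene and barcode. Per the submitters' processing notes they were made by the authors with Cell Ranger 5.0.0 on Sscrofa11.1, while the file headers name version 7.0.1. Library totals were 87844389 and 98758412 UMIs for 1797 and 96410215 and 98294210 for control, and each barcode had at least 500. Intervals and floors cover counting error only. Other deposited files hold gene names and barcodes. Gene positions, counted from 1, came from the RefSeq gene table of Sscrofa11.1.

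A barcode was kept with at least 200 genes and at most 20% mitochondrial counts (13 genes), and Scrublet in scanpy 1.11.5 (expected rate 0.1) marked 2.52% to 4.75% of them as doublets, which were removed. Cells were clustered by Leiden at resolution 1 (igraph 0.11.9; 2000 variable genes without the 5 genes and related factors, 30 components, 15 neighbours) and named from 22 marker lists. Counts were summed per library and class and tested with edgeR 4.0.16 (quasi-likelihood, TMM, filter on low counts, no covariate, adjusted p of 0.05), in all cells, pooled stromal cells and each class of at least 20 cells per library. DESeq2 1.42.0 was the second tool. The fit was also run on simulated data, and the outcome of that run is not reported here. The members, lists and tests were chosen with earlier results of these data known. Named genes were the members, the 5 most alike genes of each, the 3 most abundant genes of each list in pooled stromal cells, and other called genes; a few genes that this rule names are not reported here.

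The replicate number was not used to pair the libraries in the main fit, since the labels give it no meaning. Some values did follow it. Summed erythroid markers in B cells were 2057 and 1009 CPM in the libraries numbered 1, against 79.4 and 115 CPM in those numbered 2. Neutrophil cluster 7 held 71 and 33 cells against 473 and 650, and cluster 31 held 20 and 17 against 277 and 480. Whether a shared batch lies behind this was not tested. The alternatives were other size factors, DESeq2, no filter on low counts, a stricter cell filter, doublets kept, other clustering resolutions and clustering genes, a replicate block, and leaving out each library. After the data were seen, another clustering seed, a crossed block and a wider stromal pool were added.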

Additional observations from a re-analysis of the deposited data

How the results depend on the processing

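The counts of called genes depended on the tool and on single libraries. DESeq2 called 21 genes in all cells, 3 in pooled stromal cells and 302 summed over the 16 classes, against 0, 0 and 3 with edgeR, and it called RUNX2 in 1 blood class, the B cells. Summed over classes, edgeR called 719 genes with no filter on low counts, 47 with the replicate block, 1 with another clustering seed, 1 with doublets kept and 1 at a Leiden resolution of 0.5 (the last 3 over 14 or 15 classes). With each library left out in turn, it called 287 to 1036 genes over the classes and 0 to 56 in pooled stromal cells, of which 0 to 4 were bone targets and 0 to 1 were inputs. The causes were not tested.

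The sign of several uncalled changes turned when a library was left out, with log2 ranges of -2.21 to 1.40 (DLX5), -2.15 to 2.80 (MSX2), -1.32 to 0.16 (SP7) and -1.49 to 0.88 (TWIST1) in all cells. In pooled stromal cells they were -0.16 to 0.088 (RUNX2), -0.42 to 0.037 (DLX5) and -0.72 to 0.30 (MSX2). For RUNX2 they were -0.12 to 0.0090 in dendritic cells, -2.15 to 0.013 in endothelial cells, -0.12 to 1.53 in erythroid cells, -0.10 to 0.13 in macrophages or osteoclasts, -0.87 to 0.88 in mast cells or basophils, -1.19 to 0.61 in neutrophils and -0.37 to 0.089 in plasmacytoid dendritic cells. Other reversals were all near 0. In pooled stromal cells, RUNX2 was 0.029 with another clustering seed, MSX2 0.032 with the stricter cell filter and TWIST1 -0.013 with doublets kept. RUNX2 was 0.044 in macrophages with doublets kept, and in macrophages or osteoclasts -0.0082 with the stricter cell filter, -0.0084 with another clustering seed and -0.0041 at a Leiden resolution of 0.5.

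Pooled stromal cells lay above every blood and endothelial class in 20 of 20 comparisons of gene and library, and in 19 with the stricter cell filter and at Leiden resolution 2.0. Of 595 recomputed class levels, 560 moved by less than 1 SD of the libraries. The 35 others were uneven over the classes, with 16 of 50 in mast cells or basophils and 10 of 50 in plasmacytoid dendritic cells. These are the blood classes that were highest for RUNX2. The remainder were in pooled stromal cells (5 of 55) and mixed stromal cells (4 of 50). The deviations of same-numbered libraries had r = -0.31 in all cells and -0.08 in pooled stromal cells, and -0.23 (eosinophils) to 0.41 (neutrophils) over the 16 classes. The replicate block called 0 genes in both, and the crossed block 0 in all cells, with 498 genes at an unadjusted p under 0.05. Some classes could not be formed with 20 cells in every library under the stricter cell filter, doublets kept, another seed or the other resolutions, and those fits were not run. Osteoblast, chondrocyte and fibroblast levels are limited by cell number, down to 2 cells in a library.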
